A study of Neurospora crassa with 18 samples.

Results

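The gene lacc (NCU04528) of Neurospora crassa encodes laccase, a secreted copper enzyme that oxidizes phenols. It is 1 of 9730 genes in the expression tables and was chosen by its measured levels in cultures treated with 3-aminotriazole (3-AT), because its mRNA level was higher there in the cpc-1Δ strain and higher still in the strain that carries the cpc-1 transgene. The levels with 3-AT therefore chose the gene and are given as a description, with no test. The choice does not state against which group the cpc-1Δ level with 3-AT was higher. If that was cpc-1Δ in 2% glucose without the drug, those 2 libraries also took part in it. The other groups without 3-AT are not named in the choice.

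The study sequenced mRNA of mycelia in 18 libraries of 7 groups. CPC-1 is the transcription factor that controls amino acid biosynthesis genes when amino acids run short, and 3-AT brings about histidine starvation by inhibiting the product of his-3. Cultures in 2% glucose that had received 3-AT (5 mM, 8 h) came from 3 strains with 3 libraries each: cpc-1Δ carrying a cpc-1(WT) transgene (named the transgene strain here), cpc-1Δ, and WT (FGSC4200). The cpc-1Δ and WT strains were also sampled in 0.1% glucose medium with 0.17% arginine (2 libraries each) and in 2% glucose medium without 3-AT (2 cpc-1Δ and 3 WT libraries). All cultures were started from fresh conidia in Vogel's medium and kept in constant light at room temperature. The transgene strain carries the same deletion together with an epitope-tagged cpc-1 with its native codons, driven by the promoter and 5′ untranslated region of the clock-controlled gene ccg-1 and placed at csr-1. The cassette replaced csr-1 and also holds a hygromycin resistance gene. Between this strain and cpc-1Δ, the transgene, the loss of csr-1 and the rest of the cassette therefore cannot be told apart. The transgene strain was sampled only with 3-AT, so its lacc level without the drug is not known here. Nothing in the labels says that libraries of a group came from separate cultures, and p-values then measure the spread between these libraries only, which may be technical.

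Laccases carry several copper ions and pass electrons from phenols to oxygen. In N. crassa the enzyme is best known for appearing in the medium when protein synthesis is lowered by cycloheximide, and it is studied beside tyrosinase, another copper enzyme of phenol oxidation that appears in starved and sexually developing cultures. In other fungi laccases take part in pigment formation and in the breakdown of plant material.

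The levels are RPKM values, which count reads relative to transcript length and to the size of the library, as the authors deposited them, and lacc has 1 transcript in the tables. The deletion was visible in the cpc-1 level, which lay between 67.2 and 78.9 RPKM in the 3 transgene libraries, between 2.03 and 5.11 RPKM in the 7 cpc-1Δ libraries and between 418 and 1167 RPKM in the 8 WT libraries. The tables of the 3 transgene libraries are headed GCN4WT, after the yeast ortholog of CPC-1, where the labels name cpc-1, and the labels were followed. In these libraries csr-1, the site of the transgene, was at 0, against 1154 to 2650 RPKM in the 15 others. The deposited values carry no read counts. An estimate of relative depth from the smallest values listed put the groups of 2 libraries at 2.07 to 7.60 arbitrary units and the groups of 3 libraries at 12.5 to 22.2. At the same RPKM level, a value would then be less precise in the groups of 2. Low levels are less precise in any group. The RPKM of a library summed to 515150 to 546387 where a group had 2 libraries and to 258726 to 423848 where it had 3. The strain comparison in 0.1% glucose and the glucose comparison in cpc-1Δ lie within the first kind. The strain comparison in 2% glucose, the glucose comparison in WT, the 3-AT comparison in cpc-1Δ and the interaction of strain and glucose set one kind against the other. This difference between libraries and the condition cannot be told apart there. The groups of 3 differed as well. With 3-AT the sums were 408344 to 423848 in the transgene strain, 309352 to 328418 in cpc-1Δ and 258726 to 272263 in WT. In WT in 2% glucose without the drug they were 363953 to 370927. The same limit therefore holds for the strain comparisons with 3-AT and for the 3-AT comparison in WT.

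The levels of lacc ranged widely between the groups. In the transgene strain with 3-AT, lacc had 987, 923 and 1011 RPKM in the 3 libraries (974 ± 45.4, SD, n = 3). It was then the 51st to 64th most abundant mRNA of these libraries. In the cpc-1Δ strain with 3-AT it had 83.0, 88.0 and 80.3 RPKM (83.8 ± 3.91, n = 3), which placed it between rank 583 and rank 593. The WT strain with 3-AT had 2.26, 1.45 and 2.71 RPKM (2.14 ± 0.64, n = 3), between rank 5972 and rank 6611. The 3 strains did not overlap, and the transgene strain stood farther from the WT strain than the cpc-1Δ strain did.

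Without 3-AT, lacc was highest in the cpc-1Δ strain in 2% glucose. The cpc-1Δ strain in 2% glucose had 25.4 and 26.8 RPKM (26.1 ± 1.04, SD, n = 2), against 1.97, 0.80 and 2.14 RPKM in the WT strain (1.63 ± 0.73, n = 3). In 0.1% glucose, the cpc-1Δ strain had 1.61 and 1.35 RPKM (1.48 ± 0.19, n = 2), against 3.80 and 2.00 RPKM in the WT strain (2.90 ± 1.28, n = 2). The order of the levels was thus the transgene strain with 3-AT, cpc-1Δ with 3-AT, cpc-1Δ in 2% glucose, and then 4 groups with means between 1.48 and 2.90 RPKM. Among these 4, WT in 0.1% glucose, WT with 3-AT, WT in 2% glucose and cpc-1Δ in 0.1% glucose, each group overlapped its neighbour in that order. In mycelia measured in bulk, fewer cells with the transcript and less transcript per cell cannot be told apart.

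**Figure D1:**
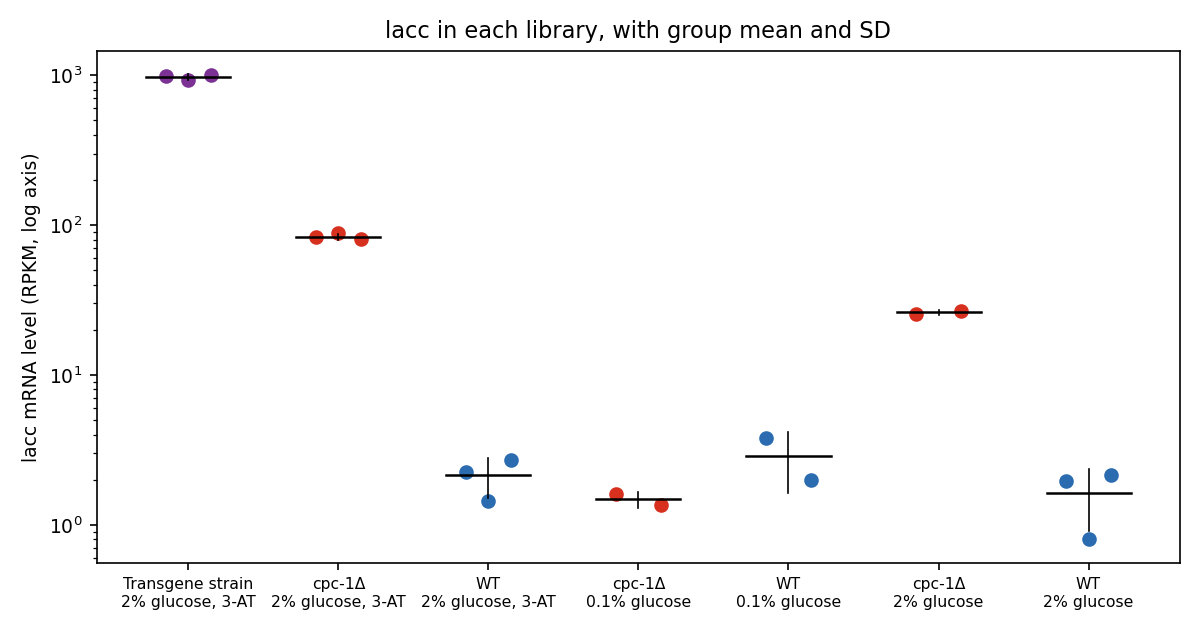
Level of lacc in each of the 18 libraries (points; RPKM, log axis), with the mean (horizontal line) and SD (vertical line) of each of the 7 groups. The 3 transgene libraries with 3-AT lie between 923 and 1011 RPKM, the 3 cpc-1Δ libraries with 3-AT between 80.3 and 88.0, the 2 cpc-1Δ libraries in 2% glucose at 25.4 and 26.8, and the 10 other libraries between 0.80 and 3.80.

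The comparisons with 3-AT are those that chose the gene. The mean level in the transgene strain was 11.6 times that in the cpc-1Δ strain and 455 times that in the WT strain, and the mean in the cpc-1Δ strain was 39.2 times that in the WT strain. On the log2(RPKM + 1) scale, which understates ratios against low levels, the differences were 3.52, 8.30 and 4.78. The difference between the transgene strain and the WT strain was the highest of the 8688 genes compared with 3-AT. In these comparisons 33.9%, 62.8% and 60.9% of the genes passed an adjusted p of 0.05, and nothing is read for lacc from these shares, since the rule used the comparisons. In the comparisons with the WT strain these were 54.3% higher and 8.47% lower for the transgene strain, and 45.5% higher and 15.5% lower for cpc-1Δ. After median-ratio scaling, which divides each library by its median ratio to an average library, the 3 lacc differences were 3.29, 7.75 and 4.46. The split of the genes called moved with this scaling, to 1399 higher and 1114 lower for the transgene strain against cpc-1Δ, 2105 higher and 2230 lower for the transgene strain against WT, and 2312 higher and 2372 lower for cpc-1Δ against WT. With upper-quartile scaling the genes called for the transgene strain against cpc-1Δ were 1162 higher and 1461 lower.

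In the cpc-1Δ strain in 2% glucose, the mean lacc level with 3-AT was 3.21 times that without the drug. The difference was 1.64 on the log2(RPKM + 1) scale, the 154th highest of 9013 genes, in a comparison where 48.1% of genes were called, 4.28% higher and 43.8% lower. The median difference of the genes above 10 RPKM was -0.51 there, and with median-ratio scaling the lacc difference was 2.11 and the genes called were 1329 higher and 1442 lower. In the WT strain the mean with 3-AT was 1.31 times that without it, and the 3 libraries with the drug (1.45 to 2.71 RPKM) overlapped the 3 without it (0.80 to 2.14 RPKM). In that comparison 44.3% of the genes were called, 10.1% higher and 34.2% lower, and after median-ratio scaling 1994 genes were higher and 1559 lower. These values are descriptions as well.

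The strain difference in 2% glucose was tested, with the limit that its cpc-1Δ libraries may have taken part in the choice of the gene. The same limit holds for the glucose effect in cpc-1Δ and for the interaction. The lacc level was higher in the cpc-1Δ strain than in the WT strain by 3.41 on the log2 scale (SE 0.26, adjusted p = 1.2e-06, limma with Benjamini-Hochberg adjustment over 9013 genes), and the mean was 16.0 times that of the WT strain. Every cpc-1Δ library was above every WT library. The change was the 67th highest of all genes, in a comparison where 54.5% of genes were called, 47.1% higher and 7.37% lower. This split moved with scaling, to 1817 genes higher and 1807 lower after median-ratio scaling, where the lacc change was 2.91. The median change of the genes above 10 RPKM was 0.52, and lacc stood 2.88 above it.

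In 0.1% glucose with arginine, the mean lacc level was lower in the cpc-1Δ strain, and the difference did not pass the test. The lacc level was 0.51 times as high in the cpc-1Δ strain as in the WT strain, a log2 fold change of -0.62 (SE 0.29, adjusted p = 0.10, limma with Benjamini-Hochberg adjustment), while 49.2% of the genes passed. The 2 cpc-1Δ libraries were below the 2 WT libraries. These WT libraries differed from each other, and without replicate 2 of WT in 0.1% glucose the log2 fold change was -0.96 (adjusted p = 0.032), and without replicate 1 it was -0.28 (adjusted p = 0.54). The lacc levels in the 0.1% glucose libraries amounted to 12.0 to 19.5 times the smallest value that the estimate of depth allowed for a transcript of this length, against at least 40.6 times in every other library.

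The lacc response to glucose was tested within each strain. For cpc-1Δ, lacc was lower in 0.1% than in 2% glucose, with a log2 fold change of -3.45 (SE 0.29, adjusted p = 7.3e-06, limma with Benjamini-Hochberg adjustment), with a mean in 0.1% glucose of 0.0566 times that in 2% glucose. This was the 47th lowest value of 9013 genes, in a comparison where 28.2% of the genes were called, 13.3% higher and 14.9% lower. In the WT strain the log2 fold change was 0.57 (SE 0.26, adjusted p = 0.087) and did not pass, in a comparison where 59.3% of the genes were called, 45% higher and 14.3% lower, or, with median-ratio scaling, 2415 genes higher and 2365 lower. The range of the WT libraries in 0.1% glucose overlapped that in 2% glucose. Without replicate 2 of WT in 0.1% glucose the value was 0.91 (adjusted p = 0.026), without replicate 1 it was 0.23 (adjusted p = 0.56), and after median-ratio scaling it was 0.19.

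The difference between these glucose effects was tested as an interaction. The log2 effect of 0.1% against 2% glucose on lacc was lower in the cpc-1Δ strain than in the WT strain, with a difference (cpc-1Δ minus WT) of -4.02 (SE 0.39, adjusted p = 8.2e-06, limma with Benjamini-Hochberg adjustment). The strain and glucose comparisons and this test share the cpc-1Δ libraries in 2% glucose. Of all genes, 50.7% passed this test, 9.96% with a higher and 40.8% with a lower value, or, with median-ratio scaling, 1763 genes higher and 2024 lower. The lacc value stayed between -4.89 and -3.48 under the other scalings, pseudocounts, filters and fits tried.

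**Figure D2:**
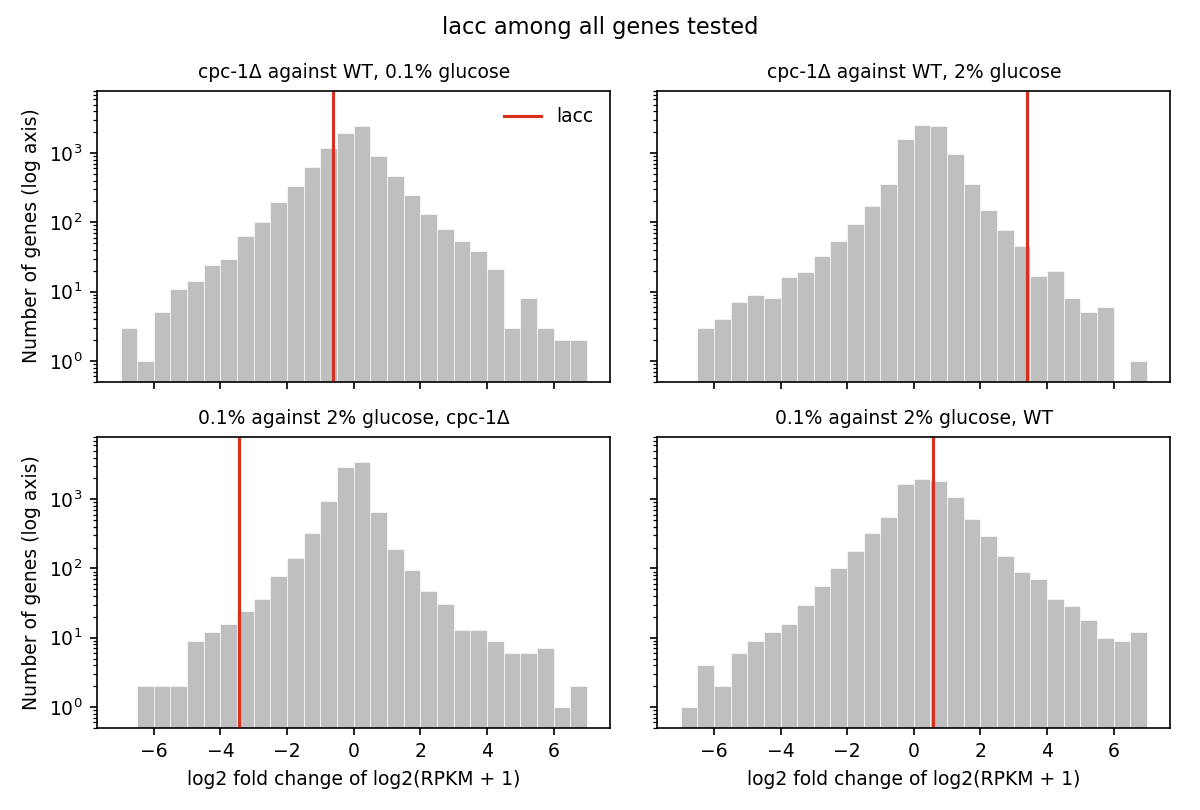
Number of genes (log axis) by log2 fold change of log2(RPKM + 1) in bins of 0.5, for the 4 comparisons tested for lacc over 9013 genes, with lacc as a red line. The line lies at 3.41 for cpc-1Δ against WT in 2% glucose and at -3.45 for 0.1% against 2% glucose in cpc-1Δ, both in the outer part of the distribution, and at -0.62 and 0.57 in the other panels, within its bulk.

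The 5 protein-coding genes on each side of lacc in the RefSeq annotation (assembly NC12) were followed beside it. In the cpc-1Δ strain in 2% glucose, 4 of these 10 were higher than in the WT strain and none was lower, against 47.1% and 7.37% of all genes. After median-ratio scaling 4 were higher and 1 was lower. Both genes next to lacc had low levels. NCU04529, on one side, had group means of at most 0.55 RPKM, and NCU12022, on the other, had 4.07 RPKM in the cpc-1Δ strain and 10.1 RPKM in the WT strain in 2% glucose (adjusted p = 0.29, limma). The NCU12022 libraries there did not overlap, at 4.55 and 3.58 RPKM in cpc-1Δ against 9.92, 9.83 and 10.4 RPKM in WT. The spread used by the test was shared with the 0.1% glucose groups. In those, NCU12022 had 0 and 5.90 RPKM in cpc-1Δ and 0 and 6.14 RPKM in WT. With 3-AT, NCU12022 was higher in the cpc-1Δ strain, at 4.96 RPKM, than in the WT strain, at 1.70 RPKM (log2 fold change 1.17, adjusted p = 0.0054). NCU12022 overlaps the next gene, NCU12021, in the annotation, so reads of these 2 genes may not be told apart.

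NCU06170, the third gene on that side, had a pattern close to that of lacc and was singled out after its values were seen. It had 182, 174 and 196 RPKM in the transgene strain with 3-AT, against 68.1, 75.7 and 69.1 RPKM in the cpc-1Δ strain with 3-AT, and 15.4, 13.6 and 12.8 RPKM in the WT strain with 3-AT. The 3 strains did not overlap and kept the order seen for lacc. In 0.1% glucose it had 9.87 and 10.5 RPKM in the cpc-1Δ strain, against 19.9 and 18.4 RPKM in the WT strain. In 2% glucose it had 64.7 and 76.2 RPKM in the cpc-1Δ strain, against 22.0, 21.3 and 24.5 RPKM in the WT strain. In the cpc-1Δ strain in 2% glucose, where the lacc mean with 3-AT was 3.21 times that without it, the means of NCU06170 were 71.0 RPKM with the drug and 70.5 RPKM without it (log2 fold change 0.01, adjusted p = 0.96, limma). After median-ratio scaling that log2 fold change was 0.49 (adjusted p = 0.0040). The difference between the genes was not tested.

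The tests for NCU06170 gave log2 fold changes of 1.36 for the transgene strain against the cpc-1Δ strain with 3-AT (adjusted p = 1.3e-05, limma with Benjamini-Hochberg adjustment) and 1.60 for the cpc-1Δ strain against the WT strain in 2% glucose (adjusted p = 2.1e-07). In 0.1% glucose the cpc-1Δ strain was lower than the WT strain, with a log2 fold change of -0.85 (adjusted p = 5.2e-05). The difference of its glucose effect between the strains (cpc-1Δ minus WT) was -2.45 (adjusted p = 2.0e-07). All of these were smaller in size than the lacc values, apart from the strain difference in 0.1% glucose.

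**Figure D3:**
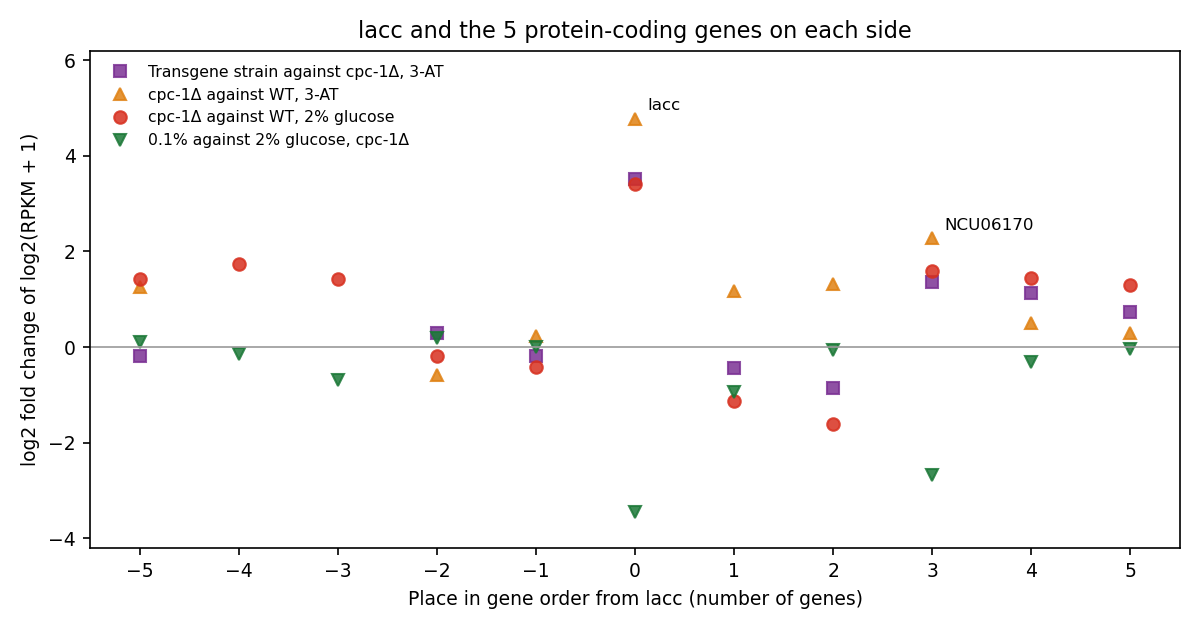
Log2 fold change of log2(RPKM + 1) for lacc (place 0) and the 5 protein-coding genes on each side of it in gene order, in 4 comparisons marked by shape and colour. In each comparison lacc lies farthest from 0, NCU06170 at place 3 has the same sign as lacc in all 4, with values of 1.36, 2.27, 1.60 and -2.67, and 2 genes without a number in a library of the transgene strain lack points for the comparisons with 3-AT.

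Laccase activity needs copper, and the genes of copper uptake and binding were examined next. In the cpc-1Δ strain in 2% glucose, 3 of 4 were higher than in the WT strain and 1 was lower, against 47.1% and 7.37% of all genes. After median-ratio scaling 2 were higher and 1 was lower. The copper transporter gene tcu-1 rose most, at 136 and 130 RPKM in the cpc-1Δ strain, against 13.6, 12.9 and 12.2 RPKM in the WT strain (log2 fold change 3.27, adjusted p = 9.9e-09, limma with Benjamini-Hochberg adjustment). The transporter gene tcu-3 was higher by 1.37 (adjusted p = 8.0e-05), and by 0.81 after median-ratio scaling (adjusted p = 0.0057). The transporter gene tcu-2 was higher by 0.32 (adjusted p = 0.016), a call that was lost after median-ratio scaling (-0.25, adjusted p = 0.11). The metallothionein gene cmt, whose product binds copper, was lower (log2 fold change -0.44, adjusted p = 6.8e-06), with a value of -1.02 after median-ratio scaling (adjusted p = 3.0e-08).

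With 3-AT, tcu-1 and tcu-3 were lower in the transgene strain than in the cpc-1Δ strain, a comparison in which the lacc mean was 11.6 times as high. The tcu-1 level was 3.25, 4.70 and 3.67 RPKM in the transgene strain, against 33.3, 24.3 and 30.7 RPKM in the cpc-1Δ strain (log2 fold change -2.64, adjusted p = 8.5e-06, limma with Benjamini-Hochberg adjustment). As deposited, the transgene libraries overlapped the WT libraries with 3-AT, which had 3.98, 3.45 and 3.10 RPKM (log2 fold change 0.11, adjusted p = 0.59, limma). That log2 fold change was -0.47 after median-ratio scaling (adjusted p = 0.047) and -0.46 after upper-quartile scaling (adjusted p = 0.057). Transporter tcu-3 was also lower in the transgene strain than in cpc-1Δ with 3-AT (log2 fold change -1.01, adjusted p = 0.0023). In the same comparison cmt was higher by 0.76 (adjusted p = 6.5e-05) and tcu-2 by 0.35 (adjusted p = 0.031, but adjusted p = 0.47 after median-ratio scaling). In that comparison 29.4% of all genes were called higher and 4.51% lower. This split moved to 1399 higher and 1114 lower with median-ratio scaling, and to 1162 higher and 1461 lower with upper-quartile scaling. Within the cpc-1Δ strain, tcu-1 was also lower in 0.1% than in 2% glucose (-3.74, adjusted p = 1.4e-08), the direction of lacc, and lower with 3-AT than without it (-2.15, adjusted p = 3.5e-07), where the lacc mean was 3.21 times as high.

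**Figure D4:**
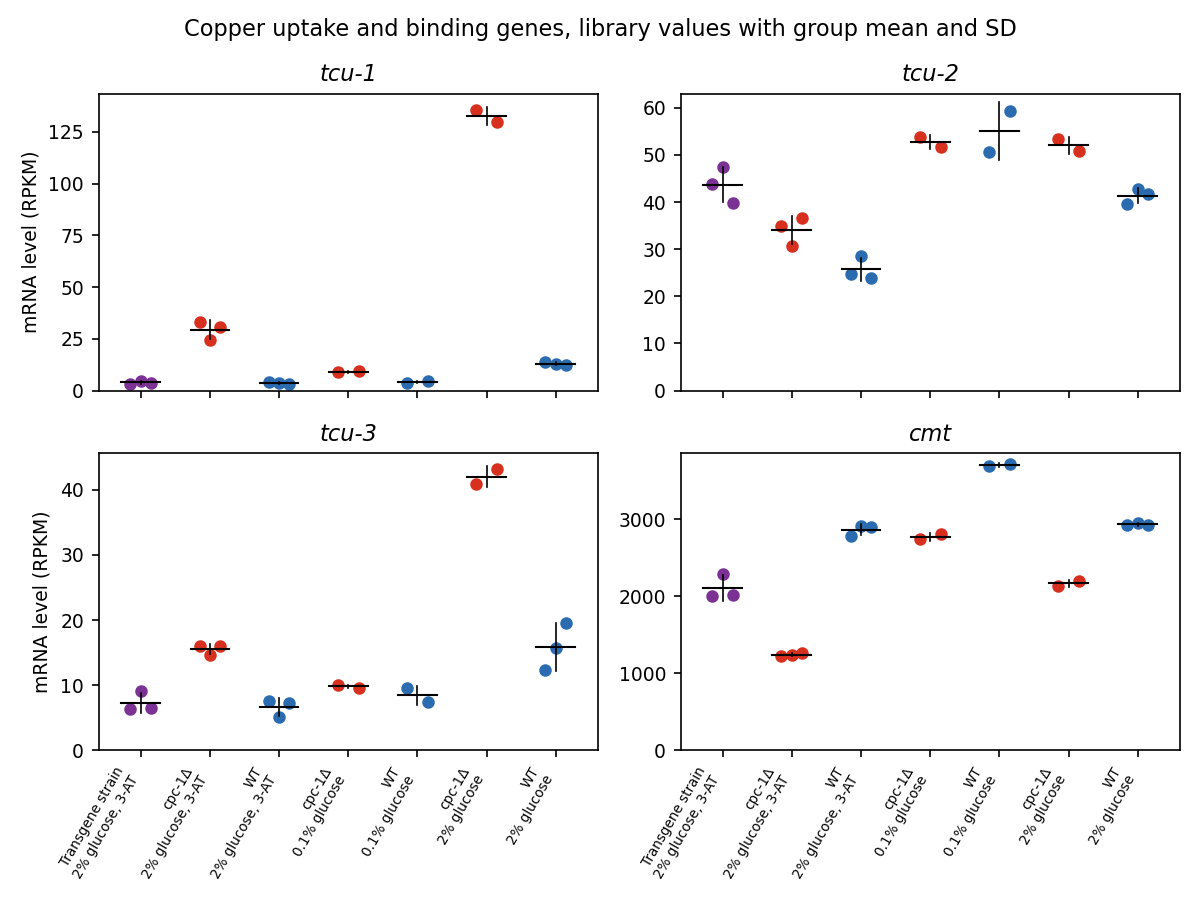
Levels of the copper transporter genes tcu-1, tcu-2 and tcu-3 and of the copper metallothionein gene cmt in each library (points; RPKM, linear axes from 0), with group means (horizontal lines) and SD (vertical lines). tcu-1 averages 133 RPKM in cpc-1Δ and 12.9 RPKM in WT in 2% glucose, and with 3-AT 3.87 RPKM in the transgene strain, 29.4 RPKM in the cpc-1Δ strain and 3.51 RPKM in the WT strain.

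Other genes of phenol and pigment chemistry had low or variable levels. The tyrosinase gene T was listed at 0 in every library and was not tested. The L-amino acid oxidase gene lao, which is known to be expressed together with tyrosinase in starved cultures, passed the test in no comparison. Its levels in 0.1% glucose were 23.9 and 23.1 RPKM in the cpc-1Δ strain, against 19.0 and 1.62 RPKM in the WT strain, so the WT libraries differed widely. The perithecial pigment gene per-1 had group means of at most 0.16 RPKM. The melanin pathway gene tnr-1 was higher in the cpc-1Δ strain in 2% glucose, at 1.85 RPKM against 0.72 RPKM in the WT strain (log2 fold change 0.70, adjusted p = 0.019, limma), and this was not called after median-ratio scaling (0.38, adjusted p = 0.18).

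Mycelial cultures can hold conidiating hyphae and early sexual structures, and the markers of both were set beside lacc. The summed level of the 6 conidiation genes was 773 to 813 RPKM in the transgene strain with 3-AT, 58.1 to 126 RPKM in the cpc-1Δ strain with 3-AT, and 2310 to 2359 RPKM in the WT strain with 3-AT. In 0.1% glucose the sum was 98.1 to 102 RPKM in the cpc-1Δ strain and 428 to 431 RPKM in the WT strain. In 2% glucose it was 160 to 181 RPKM in the cpc-1Δ strain and 47.1 to 578 RPKM in the WT strain. The hydrophobin gene eas made up most of the sums with 3-AT in the transgene and WT strains, at means of 702 RPKM in the transgene strain and 2298 RPKM in the WT strain. It was listed at 0 in 1 cpc-1Δ library with 3-AT and in 1 WT library in 2% glucose. Without eas, an alternative chosen after seeing the data, the sum with 3-AT was 83.4 to 94.8 RPKM in the transgene strain. It was 58.1 to 60.2 RPKM in the cpc-1Δ strain and 37.5 to 38.9 RPKM in the WT strain, the order of lacc. These sums are given as deposited only. The gene con-8 had this order as deposited, with means of 65.0, 23.2 and 17.9 RPKM in these strains. After median-ratio scaling its log2 fold change for cpc-1Δ against WT was -0.105 and was not called (adjusted p = 0.29, limma). By contrast, con-10 (8.44, 14.5 and 4.26 RPKM) and fl (15.8, 21.2 and 15.9 RPKM) were highest in the cpc-1Δ strain as deposited. Both were called lower in the transgene strain than in cpc-1Δ (adjusted p = 0.026 and 0.0046, limma). After median-ratio scaling con-10 was still called higher in cpc-1Δ than in WT (adjusted p = 0.0027). For fl that difference was lost, with a log2 fold change of -0.0698 (adjusted p = 0.34). Group means of con-13 with 3-AT were at most 0.33 RPKM. In 0.1% glucose the sum without eas was 80.5 to 82.9 RPKM in the cpc-1Δ strain and 371 to 378 RPKM in the WT strain. In 2% glucose it was 141 to 162 RPKM in the cpc-1Δ strain and 45.5 to 47.1 RPKM in the WT strain, again higher in the cpc-1Δ strain as lacc was. The conidial gene con-6 was at 0 in every library outside the 0.1% glucose groups.

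Single conidiation genes differed between the strains in the cultures without 3-AT. In 2% glucose con-8, con-10 and con-13 were called higher in the cpc-1Δ strain than in the WT strain. None of the 6 was called lower, against 47.1% higher and 7.37% lower of all genes. After median-ratio scaling 2 of the 6 were called higher and 1 lower in 2% glucose. For eas the libraries had 19.0 and 18.7 RPKM in the cpc-1Δ strain, against 532, 526 and 0 RPKM in the WT strain. With that 0 its spread was wide and the test did not pass (log2 fold change -1.72, SE 2.53, adjusted p = 0.61, limma). As con-6 was at 0 in 2% glucose, it could not be called either way. In 0.1% glucose 5 of 6 were lower in the cpc-1Δ strain and none was higher, against 26.9% and 22.3% of all genes. For con-8 the means in 2% glucose were 107 RPKM in the cpc-1Δ strain and 25.0 RPKM in the WT strain, and in 0.1% glucose 53.5 RPKM in the cpc-1Δ strain and 233 RPKM in the WT strain. The difference of its log2 glucose effect between the strains (cpc-1Δ minus WT) was -4.16 (adjusted p = 2.9e-11, limma with Benjamini-Hochberg adjustment). Whether conidiating hyphae had a part in the lacc levels was not tested.

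Among 11 genes of sexual development, 3 were higher and 2 were lower in the cpc-1Δ strain than in the WT strain in 2% glucose, against 47.1% and 7.37% of all genes, and 1 was higher and 2 were lower after median-ratio scaling. Their summed level was 97.5 to 105 RPKM in the cpc-1Δ strain and 90.1 to 110 RPKM in the WT strain with 3-AT, 213 to 214 RPKM in the cpc-1Δ strain and 1031 to 1039 RPKM in the WT strain in 0.1% glucose, and 237 to 239 RPKM in the cpc-1Δ strain and 113 to 141 RPKM in the WT strain in 2% glucose. The pheromone precursor gene mfa-1 made up most of the sums in 0.1% glucose. Its means there were 133 RPKM in the cpc-1Δ strain and 907 RPKM in the WT strain. In 2% glucose the ascus development gene asd-1 made up most of the cpc-1Δ sum, at 186 RPKM. The sum is not given for the transgene strain, where app lacks a number. The perithecial gene poi-2 was at 0 in the cpc-1Δ libraries without 3-AT. The ascus development gene asd-1 was higher in the cpc-1Δ strain in 2% glucose (186 against 50.5 RPKM in the WT strain) and with 3-AT (80.4 against 9.76 RPKM), as lacc was. It was lower in the transgene strain with 3-AT (66.2 RPKM) than in the cpc-1Δ strain (log2 fold change -0.28, adjusted p = 0.019, limma), unlike lacc. The pheromone precursor gene mfa-1 was lower in the cpc-1Δ strain than in the WT strain in all 3 cultures, with log2 fold changes of -4.53 with 3-AT, -2.76 in 0.1% glucose and -3.03 in 2% glucose. The part of these structures in the lacc levels was not tested either.

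The genes whose pattern was most like that of lacc were found by Pearson's r of log2(RPKM + 1) over the 18 libraries, among 5765 genes with a group mean of at least 10 RPKM. The 8 most alike had r between 0.965 and 0.983, and NCU06170 came 10th with 0.961. The 18 libraries fall into 7 groups and lacc was chosen for its levels with 3-AT, so these values describe likeness and carry no test. First was neg-1 (r = 0.983), which encodes a secreted beta-glucanase. Its means were 289 RPKM in the transgene strain, 112 RPKM in the cpc-1Δ strain and 7.14 RPKM in the WT strain with 3-AT. It also averaged 10.7 RPKM in the cpc-1Δ strain and 9.78 RPKM in the WT strain in 0.1% glucose, and 37.4 RPKM in the cpc-1Δ strain and 10.1 RPKM in the WT strain in 2% glucose.

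The others were NCU06534 (r = 0.977), NCU04526 (0.973), NCU01422 (0.970), NCU09182 (0.970), NCU04855 (0.970), gh10-3 (0.969) and NCU06893 (0.965). Of the 8, gh10-3, a glycoside hydrolase gene, had the levels closest to those of lacc in the 4 groups where lacc was lowest. It had means of 1.65 RPKM in the cpc-1Δ strain and 6.16 RPKM in the WT strain in 0.1% glucose, and 10.1 RPKM in the cpc-1Δ strain and 2.38 RPKM in the WT strain in 2% glucose. With 3-AT it averaged 47.7 RPKM in the transgene strain, 20.5 RPKM in the cpc-1Δ strain and 3.22 RPKM in the WT strain. None of the 8 had as large a ratio of highest to lowest group mean as lacc. After median-ratio scaling, 5 of the 8 were again among the 8 most alike, and with Spearman's rho 3 were.

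**Figure D5:**
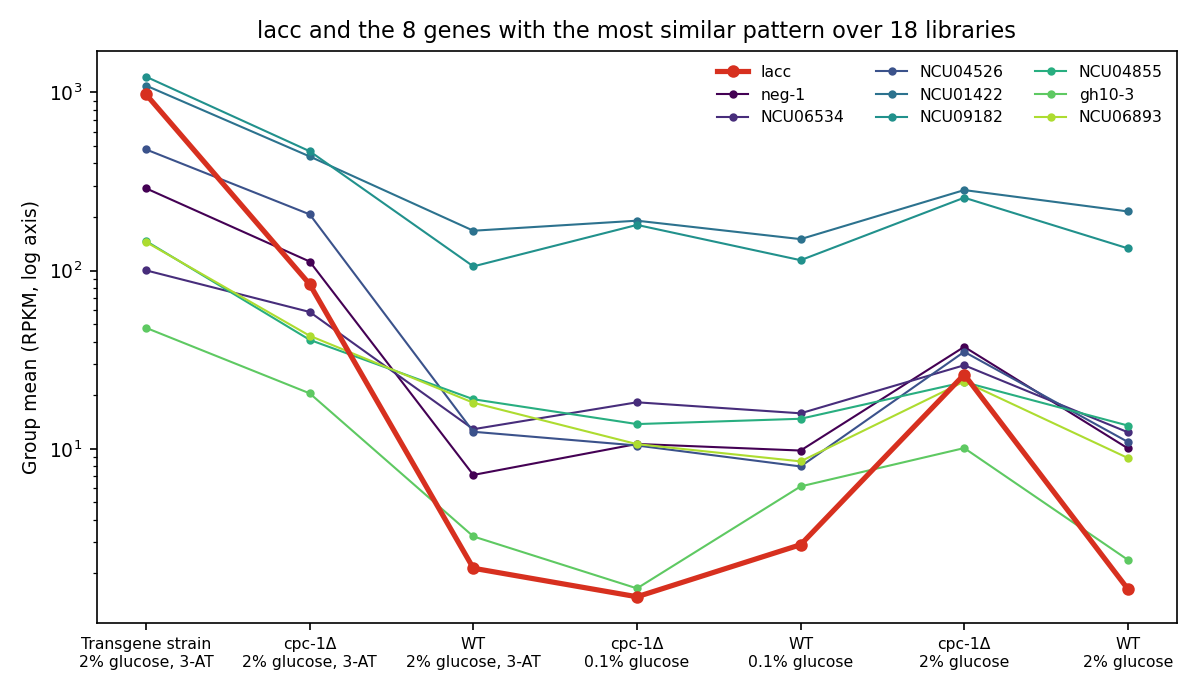
Group means (RPKM, log axis) of lacc (thick red line) and of the 8 genes with the highest Pearson's r to it over 18 libraries, in the 7 groups; lines join the groups only to guide the eye. All 9 genes have their highest mean in the transgene strain and their next highest in cpc-1Δ, both with 3-AT, and lacc has the largest ratio of highest to lowest mean, with 974 RPKM at the top and 1.48 RPKM at the bottom.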

How the data were processed

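The authors deposited 1 table per library of RPKM values, 1 per transcript. TopHat2 and Cufflinks are named in the submitters' processing notes. Their versions and roles, the genome build and the library total used are not given in the sources used here, so no genome coordinates are printed and true depth is unknown. Transcripts of a gene were summed. Genes were named from the RefSeq table (assembly NC12; 9729 of 9730 matched), and lists were matched by symbol. Comparisons used limma 3.58.1 (R 4.3.3) on log2(RPKM + 1), with Benjamini-Hochberg adjustment over all genes above 0 in a library. The code was tried on simulated data without shifts between libraries, which does not cover the lopsided comparisons above. The strain comparisons with 3-AT were fitted on the 9 libraries with 3-AT and all others on the 15 cpc-1Δ and WT libraries. In the transgene libraries, 50 to 61 transcripts had no number, and genes without one were left out of that fit. Alternatives were other scalings, a pseudocount of 0.1, a filter of 1 RPKM, other sets of libraries, a replicate block and leaving out each library. Genes named were lacc, the 10 genes beside it, the lists and the 8 genes most alike. The gene, lists and tests were chosen with earlier results of these data known. The family of laccase-like genes was not analysed here.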

Additional observations from a re-analysis of the deposited data

Results flagged for a closer look

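Only lacc, NCU06170 and tcu-1 were looked up for this section, so they are not the strongest of all genes. For these 3 genes the strain difference was not the same in both glucose media, by the interaction test itself (limma, Benjamini-Hochberg adjustment). The effect of 0.1% against 2% glucose was lower in the cpc-1Δ strain than in the WT strain, with a log2 difference (cpc-1Δ minus WT) of -4.02 for lacc (SE 0.39, adjusted p = 8.2e-06). For NCU06170, the third gene beside it, the value was -2.45 (SE 0.14, adjusted p = 2.0e-07), and for the copper transporter gene tcu-1 it was -2.29 (SE 0.20, adjusted p = 3.1e-06). Of all genes, 50.7% passed this test, 40.8% with a lower and 9.96% with a higher value. After median-ratio scaling 2024 genes were lower and 1763 higher. Of the 6 conidiation genes 4 passed, all with lower values, while 2 were not called. Among them con-8 (-4.16) and con-10 (-5.83) lay farther from 0 than lacc.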

How the results depend on the processing

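No lacc value changed direction under any alternative run. The log2 fold change of cpc-1Δ against WT in 2% glucose, that of 0.1% against 2% glucose in cpc-1Δ and the interaction passed under each, at 2.91 to 4.03, -4.06 to -3.30 and -4.89 to -3.48. The difference of cpc-1Δ against WT in 0.1% glucose (-0.62) and that of 0.1% against 2% glucose in WT (0.57) did not pass, except that without replicate 2 of WT in 0.1% glucose they were -0.96 and 0.91 and passed. With the replicate number as a block the WT glucose difference was 0.65 (adjusted p = 0.033), and no other lacc call changed. Libraries of the same number showed little shared deviation (correlations of deviations between -0.090 and 0.098 over 22 pairs). Where both groups had 2 libraries, the 2 pairs repeat each other, and a pairing is not excluded. Leaving out 1 library at a time gave 3.15 to 3.55 for cpc-1Δ against WT in 2% glucose, -0.96 to -0.28 in 0.1% glucose, -3.53 to -3.37 for the glucose effect in cpc-1Δ, 0.23 to 0.91 in WT, and -4.36 to -3.68 for the interaction. A library left alone in its group was assumed to vary like the other groups. Median-ratio and upper-quartile scaling moved the mean lacc level with 3-AT to 885 and 863 RPKM in the transgene strain, 89.3 and 91.2 RPKM in cpc-1Δ, and 3.19 and 3.09 RPKM in WT, that of cpc-1Δ to 1.13 and 1.21 RPKM in 0.1% glucose, and to 19.9 and 21.0 RPKM in 2% glucose. The genes called for 3-AT in cpc-1Δ numbered 4335, and 2771 and 2828 with these scalings. The scaled log2 differences with 3-AT were chosen after seeing the data. The counts for the laccase family were not run, since no product names or sequences were used here. With no read counts, differences between groups near 2 RPKM are the least resolved.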
